A study of Mus musculus with 15 samples.

Results

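The nuclear-encoded subunits of the oxidative phosphorylation machinery were followed in C2C12 cells, an established mouse myoblast line that can fuse into myotubes. The members were all genes whose symbol names a subunit of complex I (Nduf), II (Sdh), III (Uqcr), IV (Cox4 to Cox8) or V (Atp5). Of 86 such rows, 81 had an FPKM (fragments mapped to a transcript, scaled by its length and the depth of the library) reaching 1 in 3 or more of the 15 libraries. They were 81 of 11945 genes tested and of 23352 rows, with 38 in complex I, 4 in complex II, 8 in complex III, 14 in complex IV and 17 in complex V. The 5 groups held 3 libraries each. All cells carried a lentiviral construct: MLX-WT, which encodes wild-type MLX, MLX-DN, which encodes a dominant-negative MLX, an shRNA against MLX (MLX shRNA), a vector that made only GFP (GFP control), or an shRNA with no target (NT shRNA). MLX is a basic helix-loop-helix partner of glucose-sensing transcription factors, and the series asked what raised and lowered MLX activity does to muscle cell mRNA. Nothing in the labels tells whether a group's 3 libraries were grown apart, and the p-values cover only the spread from library to library, which may be technical.

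Oxidative phosphorylation takes electrons from NADH at complex I and from succinate at complex II, and passes them through complex III to complex IV, where oxygen is reduced. The pumped protons drive complex V, the ATP synthase. Most subunits are encoded in the nucleus and must be assembled with partners encoded in mitochondrial DNA, and in muscle several complex IV subunits exist in a form of their own that appears as the fibres mature. Factors such as NRF1, the ETS factor GABP and YY1 are known to bind promoters of these genes, and MLX with its partners binds pairs of E-boxes.

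The libraries held an estimated 37.1 to 82.9 M reads. Mlx itself checked the labels: it stood at 16.6, 17.6 and 17.1 FPKM in the GFP control, 655, 632 and 645 with MLX-WT, 384, 400 and 398 under MLX-DN, 16.3, 17.1 and 17.9 with NT shRNA, and 2.88, 3.96 and 2.80 with MLX shRNA. All 8 myoblast markers were among the genes tested, but so were all 10 myotube markers, whose summed FPKM was 7802 ± 77.6 (SD, n = 3) in the GFP control, 8402 ± 103 with MLX-WT, 7157 ± 130 with MLX-DN, 5992 ± 82.7 with NT shRNA and 8459 ± 314 with MLX shRNA. The cultures labelled as myoblasts thus held the mRNAs of differentiating cells, in unlike amounts. The 6 fibroblast markers (1 at 0 throughout) summed to 147.5 FPKM in the GFP control, 79.1 with MLX-WT, 57.5 with MLX-DN, 55.7 with NT shRNA and 18.9 with MLX shRNA. The lists for adipocytes (5 genes), endothelial cells (4 genes) and immune cells (4 genes, 1 at 0 throughout) summed to at most 5.76 FPKM in any library. In bulk RNA of this kind, fewer cells of a type and less RNA per cell cannot be told apart.

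Promoter stretches of 5 members are shown as examples and not as a ranking. In complex V, Atp5g2 was taken for a fall with MLX-DN and a rise with MLX shRNA, and Atp5k for a rise with MLX shRNA. Uqcrh was taken for a rise with MLX shRNA in complex III. Ndufb7 was taken for the largest difference of any member, and Cox7a1 for the muscle forms of complex IV. The changes of Atp5g2 depended on the control, as given below. Atp5d, not shown, differed more with MLX-DN than Atp5g2 (-0.73 against -0.56) and held none of the cores searched. Shares over the members follow after the stretches. Each stretch is the 150 bases before the RefSeq start, build GRCm38.p6, 5′ to 3′ on the gene's own strand. Capitals mark an NRF1 core (GCATGCG, whose matches on both strands overlap in these stretches) or an ETS core (CCGGAAG, or CTTCCGG when on the other strand).
Atp5g2, chr15:102671048-102671197, minus strand, NRF1 core: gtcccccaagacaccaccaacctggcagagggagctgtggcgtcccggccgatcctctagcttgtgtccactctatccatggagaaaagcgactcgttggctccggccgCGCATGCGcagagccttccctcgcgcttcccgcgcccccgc
Atp5k, chr5:108434400-108434549, minus strand, NRF1 core: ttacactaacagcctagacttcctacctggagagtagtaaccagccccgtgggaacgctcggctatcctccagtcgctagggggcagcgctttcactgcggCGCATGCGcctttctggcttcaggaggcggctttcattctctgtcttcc
Uqcrh, chr4:116075071-116075220, minus strand, ETS core: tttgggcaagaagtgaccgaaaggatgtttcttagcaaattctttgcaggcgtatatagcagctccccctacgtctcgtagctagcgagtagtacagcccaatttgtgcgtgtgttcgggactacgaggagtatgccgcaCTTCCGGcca
Ndufb7, chr8:83566608-83566757, plus strand, ETS core: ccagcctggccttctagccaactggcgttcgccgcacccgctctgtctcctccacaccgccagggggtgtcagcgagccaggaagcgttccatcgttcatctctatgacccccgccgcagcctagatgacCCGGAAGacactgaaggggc
Cox7a1, chr7:30184021-30184170, plus strand, none of the cores searched: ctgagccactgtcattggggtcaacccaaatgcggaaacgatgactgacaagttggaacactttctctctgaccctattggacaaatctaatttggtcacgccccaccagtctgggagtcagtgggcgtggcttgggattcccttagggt

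Over windows of 300 bases (250 before to 50 after the start), 68 of 80 member symbols had a RefSeq entry. On either strand, the NRF1 core stood in 11 of the 68 (16.2%, against 4.0% of all 27025 genes with a RefSeq promoter) and the ETS core in 16 (23.5% against 9.9%). Those 27025 genes were not filtered by expression, as the members were, and shares among the genes tested were not computed. The YY1 core AAGATGG stood in 12 (17.6% against 7.3%), and the palindromic E-box CACGTG, the kind of site that MLX complexes bind, in 7 (10.3% against 8.1%). A match describes letters and is not a binding site. The 7 members with the E-box had a median log2 difference of -0.01 with MLX-WT against the GFP control and 0.28 with MLX shRNA against NT shRNA, and the 61 without it had 0.04 and 0.20.

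Taken as a sum, the members' mRNA was lowest in the NT shRNA libraries, by more than the spread between libraries. The 81 genes summed to 16400, 16300 and 16160 FPKM in the GFP control, 17120, 16920 and 17030 with MLX-WT, and 16040, 16060 and 15600 with MLX-DN. They summed to 14800, 14500 and 14640 FPKM with NT shRNA and to 16440, 17350 and 16910 with MLX shRNA. All 3 NT shRNA libraries lay below the other 12, all MLX-DN libraries lay below all GFP control libraries, and the MLX-WT and MLX shRNA libraries overlapped. As a share of all FPKM in a library, which differed in total, the members took 3.501% ± 0.0233 (SD, n = 3) in the GFP control, 3.65% ± 0.00975 with MLX-WT, 3.58% ± 0.0336 with MLX-DN, 3.32% ± 0.0313 with NT shRNA and 3.67% ± 0.0429 with MLX shRNA. On that scale MLX-DN lay above the GFP control, so the direction of the MLX-DN sum depended on the scale, and that of NT shRNA did not. NT shRNA had the lowest group mean for 45 of the 81 members (55.6%, against 9.28% of all genes tested) and the highest for 0. The summed myotube markers given above were also lowest with NT shRNA and highest with MLX shRNA and MLX-WT, and their part in the members' levels was not tested.

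**Figure D1:**
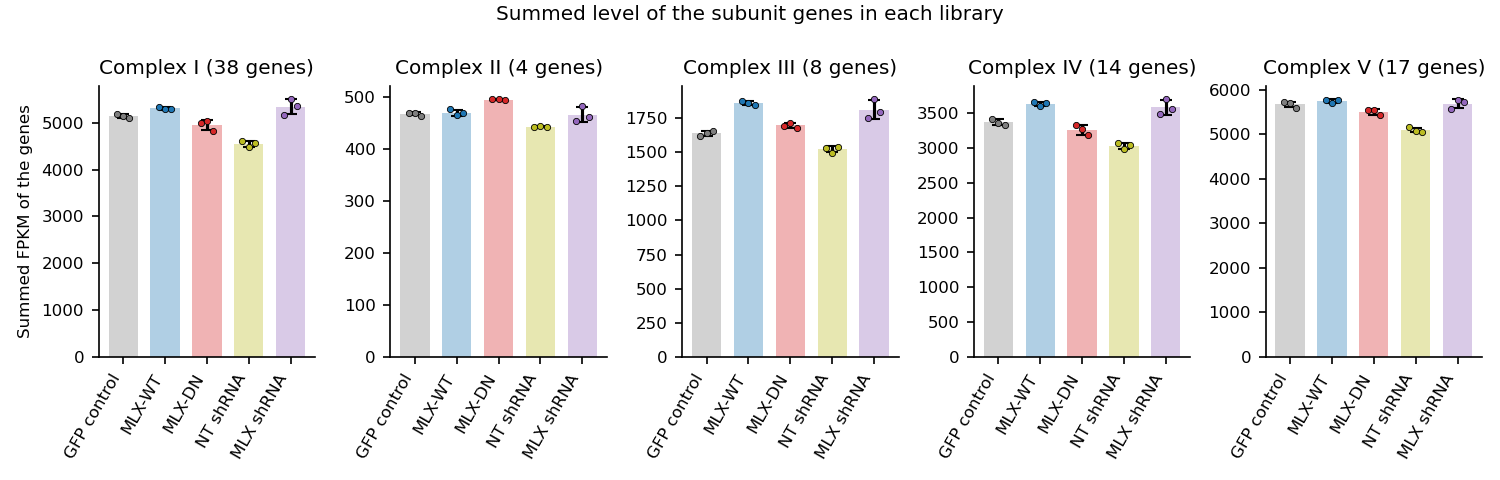
Summed FPKM of the members of each complex (y axis, linear, from 0; 1 panel per complex) in the 5 groups (x axis); points are libraries, bars the mean and error bars the SD of 3 libraries. NT shRNA is the lowest group in all 5 panels, and in complex II MLX-DN is the highest, with 494 ± 1.40.

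With MLX shRNA against its own control, NT shRNA, the members moved mostly up, by small amounts. Of the 81, 59 rose and 10 fell (limma, adjusted p below 0.05), where 30.8% of all genes tested were called higher and 39.3% lower. The members' median log2 difference was 0.20, with 0.14 to 0.25 under the other scalings, and that of all genes tested was -0.03. Of the 59 rises 21 were by at least 25%, and 1 of the 10 falls reached the same ratio. In complex I 27 rose and 3 fell, in complex II 2 rose and 2 fell, in complex III 7 rose and 1 fell, in complex IV 10 rose and 1 fell, and in complex V 13 rose and 3 fell. The 51 members with transcripts under 1000 bases had a median of 0.26 and the 30 longer ones 0.17, against 0.09 and -0.03 for all tested genes of those lengths. Without 1 library, the rises numbered 54 to 61. The summed myotube markers, given above, were higher with MLX shRNA than with NT shRNA in all libraries. The summed fibroblast markers were lower, and all 3 of them that were tested fell (median -0.94). The part of either list in these rises was not tested.

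Against the other control the members' difference was smaller. Between the controls themselves, NT shRNA minus GFP control, 55 members were called lower and 11 higher, where 37.1% of all genes tested were lower and 37% higher, and the members' median was -0.17. Against the GFP control, MLX shRNA had 32 members higher and 29 lower, against 37.3% and 42.8% of all genes tested, with a median of 0.03. A total of 30 members (37%) were higher with MLX shRNA than in both controls, against 21.4% of all genes tested, and 8 were lower than in both, against 28% of all genes tested. These comparisons share libraries, and only the values are set side by side.

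More wild-type MLX left the members near the GFP control. MLX-WT had 35 members higher and 21 lower than the GFP control, where 27.6% of all genes tested were higher and 42.7% lower. Of the called members, 62.5% were thus higher, a split that became 85.2% with libraries centred on their medians and 42.6% with trends over transcript length and GC content removed. The members' median of 0.05 turned to -0.02 in the latter setting, and that of all genes tested was -0.05. Complexes III and IV had the highest medians, 0.21 (0.13 to 0.28 over the scalings) and 0.12 (0.03 to 0.19), and 9 members, 5 of them in complex IV, rose by at least 25%. Against NT shRNA, 63 members were higher and 3 lower (25.7% and 44.3% of all genes tested), and 30 were higher with MLX-WT than in both controls (37%, against 11.4% of all genes tested).

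The members' calls with MLX-DN against the GFP control were split. There were 26 higher and 32 lower, shares close to or under those of all genes tested, of which 32.6% were higher and 48.8% lower. Of the called members 44.8% were higher, and this became 62.5% after median centring and 57.6% with equal sums of FPKM. The median of -0.04 turned to 0.06 and 0.03 in those settings, so no direction is given for the members as a group. Complex I had a median of -0.08 (-0.10 to 0.01 over the scalings), with 7 higher and 19 lower. Against NT shRNA, MLX-DN had 51 members higher and 7 lower (21% and 48.7% of all genes tested). Compared with MLX-WT, MLX-DN had 19 members higher and 40 lower (33.2% and 38.9% of all genes tested). The share of higher calls was 32.2%, and it became 44.8% with equal sums and 54.5% with length and GC trends removed, where the median of -0.06 turned to 0.01.

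**Figure D2:**
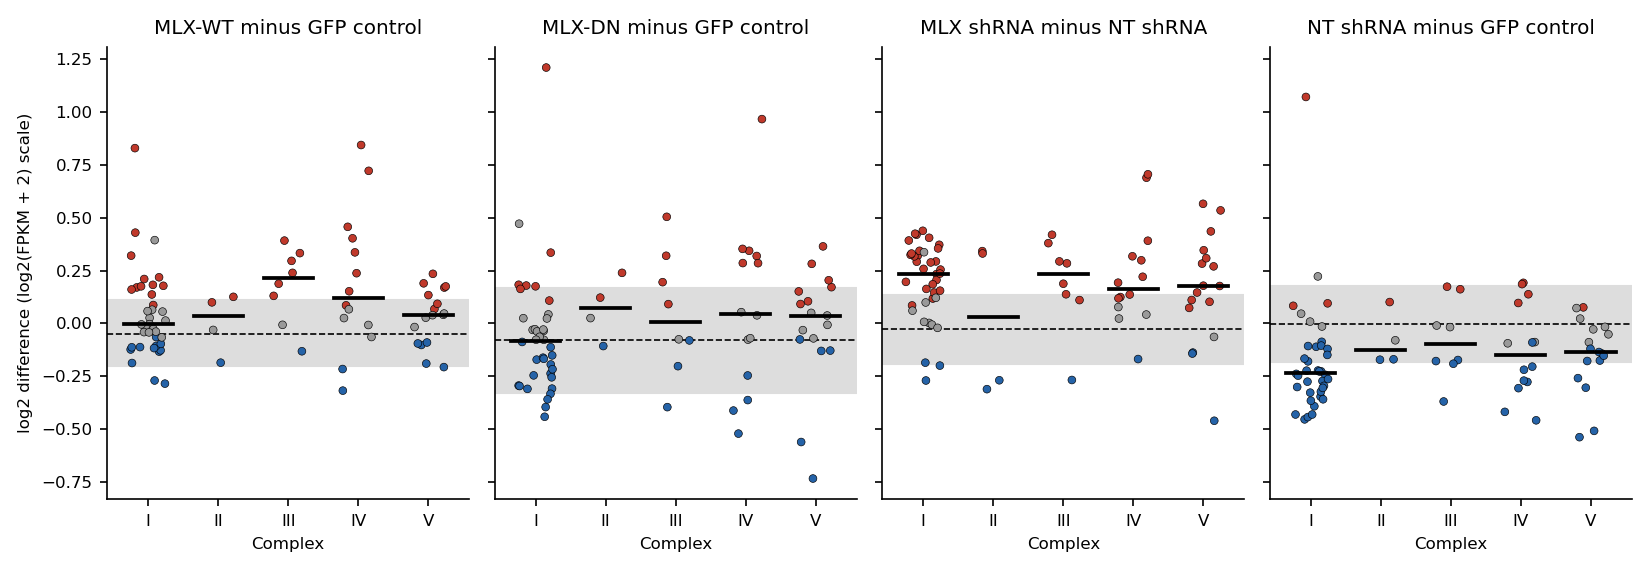
Log2 difference of each member (y axis, log2(FPKM + 2) scale) by complex (x axis) in 4 comparisons (panels); red points were called higher, blue lower and grey neither, black lines are medians of a complex, the dashed line is the median of all genes tested and the grey band their middle range from the 25th to the 75th percentile. With MLX shRNA the medians of complexes I, III, IV and V lie above the grey band and that of complex II, 0.03 (-0.03 to 0.08 over the scalings), lies inside it; with NT shRNA against the GFP control the median of complex I, -0.23, lies below it.

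Complex I, the entry point for electrons from NADH, has a catalytic core surrounded by accessory subunits. With MLX shRNA against NT shRNA, 24 of 31 accessory members rose and 1, Ndufa10, fell, where 30.8% of all genes tested were higher and 39.3% lower. Their median was 0.29 (0.17 to 0.34 over the scalings), and that of the 7 core members was 0.10 (0.03 to 0.15). Against the GFP control the rise of the accessory members was not seen. There, 10 were higher and 13 lower with MLX shRNA (37.3% and 42.8% of all genes tested), with a median of -0.04. The difference between core and accessory members was not tested.

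Ndufs1, the iron-sulfur subunit that passes electrons along the peripheral arm, moved in opposite directions under both ways of interfering with MLX. Its levels were 87.3, 86.4 and 86.5 FPKM in the GFP control and 108, 109.8 and 112 with MLX-DN, and 92.4, 94.6 and 89.1 with NT shRNA and 81.3, 78.9 and 81.8 with MLX shRNA. It rose by 0.33 ± 0.024 with MLX-DN (SE, adjusted p = 3.08e-09) and fell by 0.19 ± 0.024 with MLX shRNA (adjusted p = 5.42e-06), and no libraries overlapped in either pair. Ndufs7, which carries the last iron-sulfur cluster before the quinone, stood at 112, 107 and 109.6 FPKM in the GFP control and 83.7, 81.9 and 74.98 with MLX-DN, lower by 0.44 on the log2 scale (adjusted p = 1.5e-07). With MLX shRNA, Ndufs7 did not pass the test (0.10, adjusted p = 0.056). Ndufs3, another core subunit, was below the GFP control by 0.27 (MLX-WT) and 0.17 (MLX-DN), but above NT shRNA by 0.09 and 0.19.

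Ndufb7, an accessory subunit of the membrane arm, had the largest difference of any member with MLX-DN. It stood at 155, 160.1 and 150.1 FPKM in the GFP control, 281, 277 and 273 with MLX-WT, 365, 375 and 345 under MLX-DN, 333, 316 and 335 with NT shRNA, and 408, 463 and 434 with MLX shRNA. The GFP control was thus low against all 12 other libraries, and MLX-WT was lower than NT shRNA by 0.24 (adjusted p = 9.97e-05). Against its own control, each MLX group had more Ndufb7, by 0.83 (MLX-WT), 1.21 (MLX-DN) and 0.40 (MLX shRNA), and the NT shRNA control exceeded the GFP control by 1.07 (adjusted p = 2.77e-12). The 10 nearest tested neighbours on chromosome 8, 5 on each side, had medians of 0.86, 1.11, 0.04 and 1.39 in the same order, without Ndufb7. All 10 were called higher in NT shRNA and in MLX-DN than in the GFP control, Tecr and Zfp330 among them. The difference from the GFP control was therefore shared by the stretch of the chromosome around Ndufb7. With MLX shRNA against NT shRNA the neighbours were split, with 5 called higher and 3 lower. The rise of Ndufb7 by 0.40 was larger than their median. It was close to the log2 difference of the adjacent Tecr (0.38) and below that of Tbc1d9 (0.56). Whether this rise was separate from the stretch was not tested.

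Other accessory members of complex I were given by size of change. Ndufs6, a small zinc-binding subunit of the peripheral arm, stood at 80.9, 76.8 and 79.5 FPKM in the GFP control and 107, 109.4 and 105 with MLX-WT, a rise of 0.43 ± 0.036 (SE, adjusted p = 3.65e-08). Ndufa11, a membrane subunit, stood at 24.7, 25.5 and 25.8 FPKM in the GFP control and 18.7, 19.7 and 18.01 with MLX-DN, a fall of 0.40 (adjusted p = 3.07e-07). Against NT shRNA the difference was -0.004 (adjusted p = 0.942). With MLX shRNA, Ndufa11 was called higher than with NT shRNA and lower than in the GFP control. Ndufa1 and Ndufa13, both needed for assembly of the complex, rose most with MLX shRNA. Ndufa1 went from 106, 105 and 100.3 FPKM to 140.2, 139.7 and 145 (0.44, adjusted p = 1e-06), and Ndufa13 from 76.9, 68.8 and 72.7 to 90.7, 110.0 and 95.2 (0.42, adjusted p = 2.36e-05). Ndufa10, an accessory subunit of kinase-like fold, was lower in all 3 MLX groups than in the own control, by 0.11 (MLX-WT), 0.17 (MLX-DN) and 0.20 (MLX shRNA). Its MLX-WT call was not kept under all scalings (-0.14 to -0.04), and MLX-WT against NT shRNA was not called. Ndufa4, which was named as a complex I subunit and was later found in complex IV, was the most abundant member listed under complex I, at a mean of 526 FPKM. It rose by 0.26 with MLX shRNA (adjusted p = 2.51e-07; 0.03, adjusted p = 0.217, against the GFP control), and with MLX-DN its fall of 0.09 turned to 0.00 after median centring and to 0.01 after quantile normalization.

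Some rows of complex I need care. Reads of Ndufs5 were mostly in a row shared with a copy, Ndufs5;BC002163, at a mean of 137.5 FPKM, and the row of Ndufs5 alone held a mean of 2.19 FPKM and passed no test against its own control. The shared row rose by 0.21 under MLX-WT and by 0.39 under MLX shRNA. In all, 21 of the 81 members had a pseudogene of at least 95% identity over at least 30% of a transcript, among them Ndufs3, Ndufs6, Atp5g2, Atp5k, Atp5l, Uqcrb and Uqcr11, so their reads may be split. There were 5 members (Ndufa2, Ndufb5, Ndufb11, Uqcrc2 and Atp5j, of which Ndufb11 also has a pseudogene copy) that shared at least 10% of exon bases with an expressed gene on the other strand. The sources used here do not tell whether reads were assigned by strand.

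**Figure D3:**
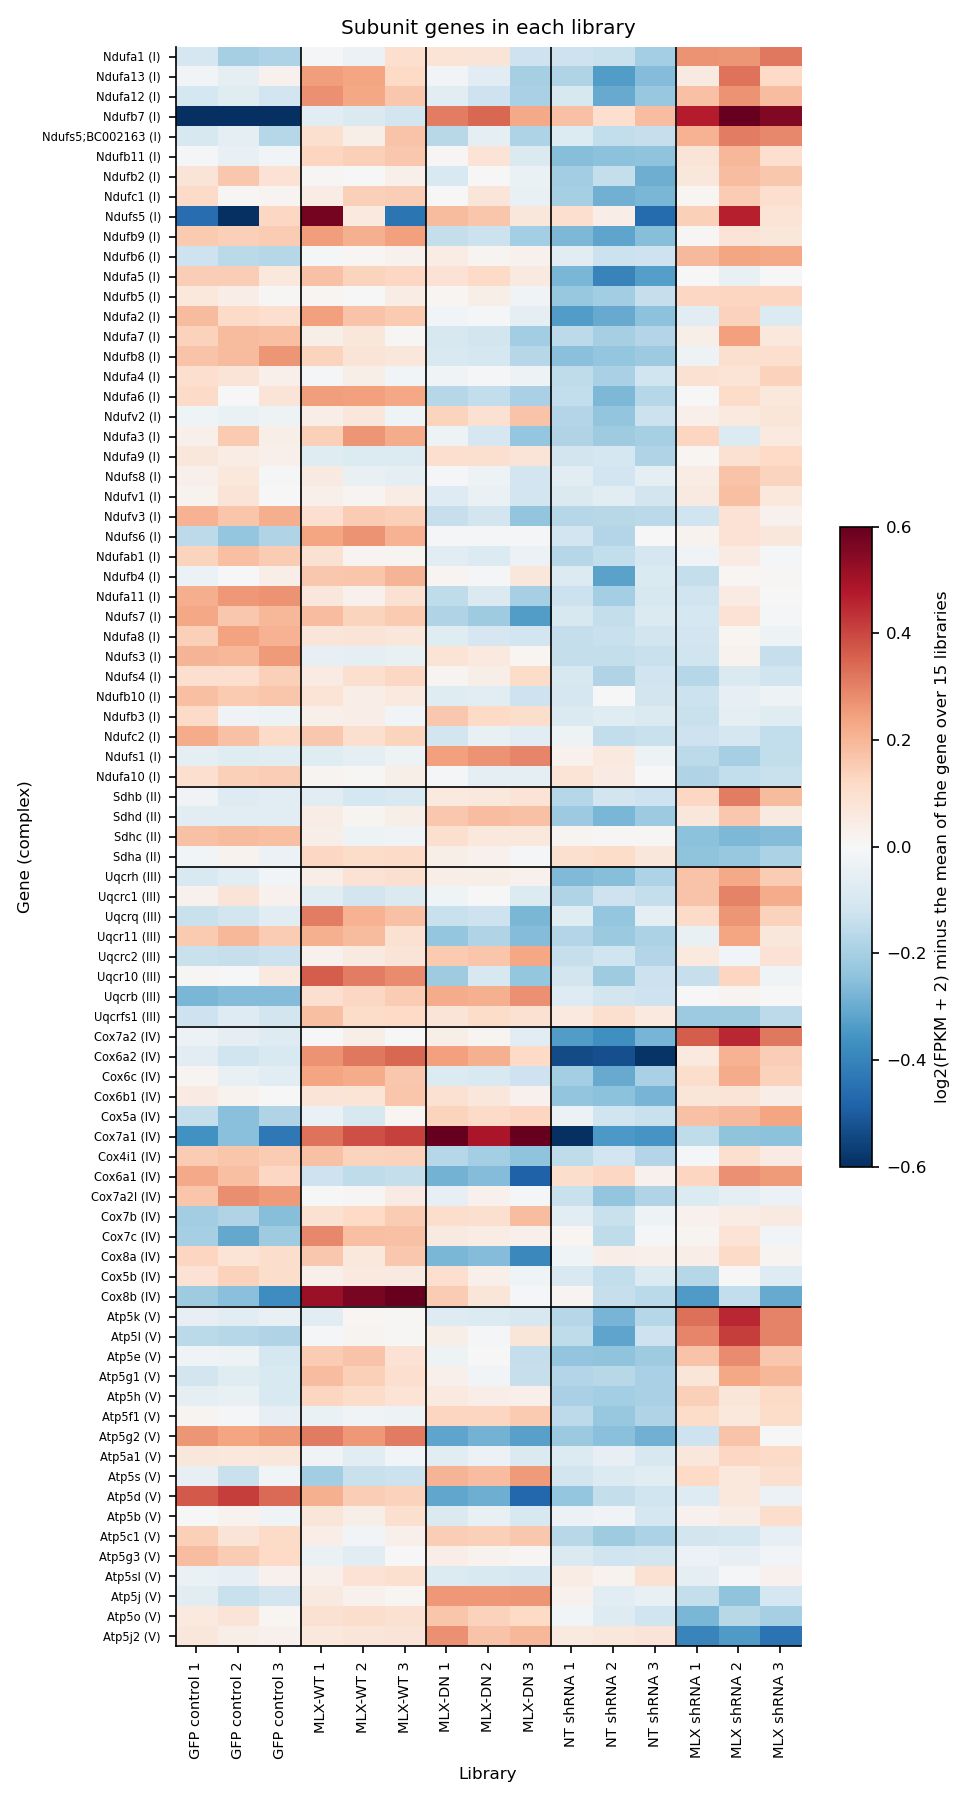
Level of 80 of the 81 members (rows, by complex and then by their difference with MLX shRNA) in the 15 libraries (columns) as log2(FPKM + 2) minus the gene's mean over the libraries (colour, clipped at 0.6 either way). The NT shRNA columns are mostly blue in complexes I, III, IV and V, and Ndufb7, Cox7a1, Cox6a2 and Cox8b differ most between groups.

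Complex II, which is also an enzyme of the citric acid cycle, split between its subunits with MLX shRNA. Sdha, the flavoprotein that oxidises succinate, stood at 117, 118 and 115 FPKM with NT shRNA and 92.1, 93.1 and 95.6 with MLX shRNA, a fall of 0.31 ± 0.022 (SE, adjusted p = 5.82e-09). Sdhc, a membrane anchor, fell by 0.27, from 94.2, 93.6 and 93.7 FPKM to 78.2, 76.9 and 77.5. Sdhb, which holds the iron-sulfur clusters, rose by 0.34, from 128, 134 and 132 FPKM to 158, 179 and 165, and Sdhd, the other anchor, by 0.33, from 102, 97.6 and 101 to 124, 133 and 123. In each case the groups did not overlap, and the 4 calls held under all scalings, as did the same directions against the GFP control. With MLX-DN, Sdhd rose by 0.24, from 113 FPKM in each GFP control library to 133, 135 and 134. The subunits of the complex, which work in equal numbers, thus changed unequally at the mRNA level.

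In complex III, Uqcrb, a small subunit at the quinone-binding face, was higher in both overexpressing groups than in the GFP control. It stood at 228, 229.9 and 230.1 FPKM in the GFP control, 296, 301 and 307 with MLX-WT and 323, 321 and 335 with MLX-DN, with rises of 0.39 ± 0.022 and 0.50 ± 0.022 (SE, adjusted p = 2.54e-10 and 6.1e-12). Its rise of 0.11 with MLX shRNA turned to -0.02 under another scaling. The Rieske iron-sulfur protein Uqcrfs1, which hands electrons to cytochrome c1, was higher with MLX-WT at 93.4, 88.9 and 89.4 FPKM and with MLX-DN at 87.0, 88.7 and 87.6 than in the GFP control at 75.3, 77.9 and 76.1. With MLX shRNA it fell by 0.27, from 85.6, 88.1 and 85.6 FPKM to 70.4, 70.6 and 73.4 (adjusted p = 1.23e-07). No library overlapped in these pairs, but MLX-DN against NT shRNA did not pass the test (0.02, adjusted p = 0.455).

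The remaining complex III members rose with MLX shRNA. Uqcrh, the acidic hinge protein, stood at 344, 346 and 363 FPKM with NT shRNA and 466, 484 and 460.3 with MLX shRNA, a rise of 0.42 ± 0.027 (SE, adjusted p = 2.12e-09), and was also above the GFP control at 388, 396 and 409. Uqcrc1, a core protein, rose by 0.38, from 131, 136 and 134 FPKM to 167, 183 and 173, while with MLX-WT its fall of 0.13 kept its sign but lost the call after median centring (-0.06, adjusted p = 0.0567). Uqcrq, a small membrane subunit, rose by 0.33 with MLX-WT (adjusted p = 4.2e-05). Uqcr11, another small subunit, stood at 268, 276 and 267 FPKM in the GFP control and 204, 212 and 199.7 with MLX-DN, a fall of 0.40 (adjusted p = 3.49e-06). Against NT shRNA the same libraries gave -0.03 (adjusted p = 0.662).

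In complex IV, 3 subunits have a muscle form and a general counterpart, and both were measured. Cox7a1, the heart and muscle form of subunit VIIa, stood at 15.4, 16.9 and 14.7 FPKM in the GFP control, 26.1, 27.3 and 27.8 with MLX-WT and 34.0, 29.4 and 34.0 with MLX-DN. It rose by 0.72 ± 0.068 and 0.97 ± 0.068 (SE, adjusted p = 1.39e-07 and 2.2e-09), and both groups lay wholly above the control. With MLX shRNA it stood at 18.2, 16.9 and 16.9 FPKM against 12.7, 15.7 and 15.5 with NT shRNA, and its rise of 0.22 (adjusted p = 0.00898) became 0.14 without NT shRNA replicate 1 (adjusted p = 0.0574) and 0.13 against the GFP control (adjusted p = 0.0843). Its counterpart Cox7a2 did not pass the test with MLX-WT or MLX-DN (0.07 and 0.05, adjusted p = 0.0957 and 0.165). With MLX shRNA, Cox7a2 went from 158, 154 and 164 FPKM to 257, 273 and 248.5, the largest rise of any member there, at 0.70 ± 0.035 (adjusted p = 6.88e-11).

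Cox6a2 and Cox6a1, the muscle form and the general form of subunit VIa, went apart with MLX-WT and MLX-DN. Cox6a2 stood at 89.3, 85.8 and 87.7 FPKM in the GFP control, 113, 117 and 119 with MLX-WT and 111, 108.9 and 102 with MLX-DN, rises of 0.40 and 0.29 (adjusted p = 1.43e-07 and 4.07e-06). Cox6a1 stood at 272, 263 and 253 FPKM in the GFP control, 213, 209 and 209.9 with MLX-WT and 190.2, 194 and 165 with MLX-DN, falls of 0.32 and 0.52 (adjusted p = 5.8e-05 and 1.56e-07). With MLX shRNA, Cox6a2 rose by 0.69 from 63.9, 64.3 and 61.6 FPKM to 97.5, 108.5 and 104. Cox6a1 was higher there by 0.14 (adjusted p = 0.0288), but the call was lost without MLX shRNA replicate 2 or 3 (0.11 and 0.12, adjusted p = 0.106 and 0.0916) or NT shRNA replicate 3 (0.11, adjusted p = 0.115). NT shRNA had the lowest Cox6a2 of all groups.

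Cox8b, the muscle form of subunit VIII, stood at 34.4, 33.4 and 30.6 FPKM in the GFP control, 58.3, 60.6 and 62.3 with MLX-WT and 44.9, 42.4 and 40.0 with MLX-DN. Its rises were 0.84 ± 0.059 and 0.35 ± 0.059 (SE, adjusted p = 4.14e-09 and 4.58e-05), and MLX-DN was below MLX-WT by 0.49 (adjusted p = 2.16e-06). With MLX shRNA its fall of 0.17 (adjusted p = 0.0186) was lost without MLX shRNA replicate 1 or 3 or NT shRNA replicate 1 (-0.13, -0.15 and -0.11, adjusted p = 0.0839, 0.0642 and 0.108), and the groups overlapped. Cox8a, the general form, fell by 0.41 with MLX-DN, from 282, 273 and 278 FPKM to 213, 215 and 197 (adjusted p = 3.76e-08).

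Ratios within a library do not change when all its FPKM values are multiplied by the same factor. Quantile normalization and removal of length and GC trends can change them, and the shares were not recomputed under those settings. Cox6a2 made up 25.02% ± 0.616 (SD, n = 3) of the Cox6a1 and Cox6a2 sum in the GFP control, 35.6% ± 0.768 with MLX-WT, 37.0% ± 1.09 with MLX-DN, 20.5% ± 0.216 with NT shRNA and 27.6% ± 0.331 with MLX shRNA. Cox7a1 made up 7.55% ± 0.478 of its pair in the GFP control, 11.9% ± 0.329 with MLX-WT, 14.1% ± 1.22 with MLX-DN, 8.45% ± 0.891 with NT shRNA and 6.26% ± 0.393 with MLX shRNA. Cox8b made up 10.6% ± 0.560 of its pair in the GFP control, 17.6% ± 0.777 with MLX-WT, 16.9% ± 0.486 with MLX-DN, 12.6% ± 1.07 with NT shRNA and 11.01% ± 0.445 with MLX shRNA. For all 3 pairs every MLX-WT and MLX-DN library had a higher share of the muscle form than every other library. The share was higher with MLX shRNA than with NT shRNA for Cox6a2 and lower for Cox7a1 and Cox8b, without overlap. Against the GFP control, 5 of the 10 myotube markers were higher and 3 lower with MLX-WT, and 2 were higher and 7 lower with MLX-DN, and their part in the shares was not tested.

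**Figure D4:**
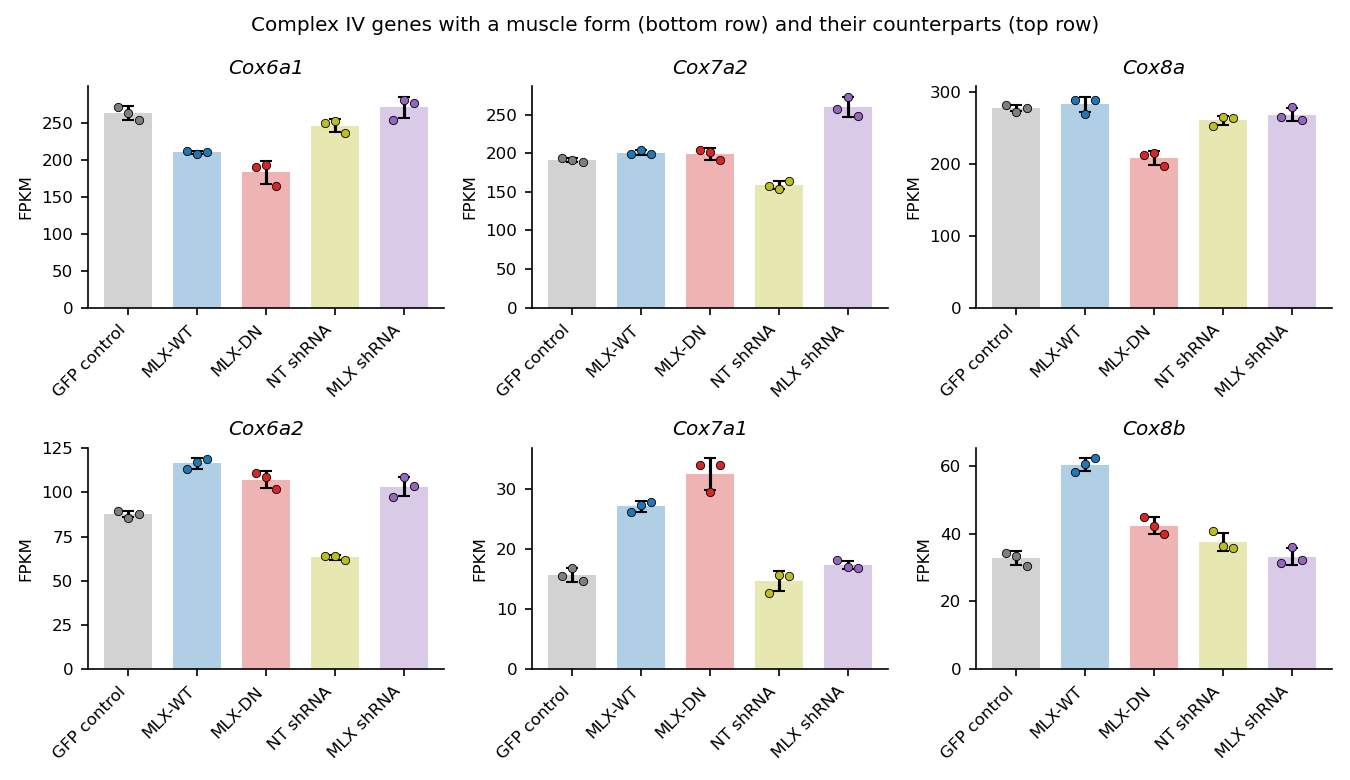
FPKM (y axis, linear, from 0) of 3 complex IV subunits with a muscle form (bottom row: Cox6a2, Cox7a1, Cox8b) and their counterparts (top row: Cox6a1, Cox7a2, Cox8a) in the 5 groups (x axis); points are libraries, bars means and error bars the SD of 3 libraries. The muscle forms are higher with MLX-WT and MLX-DN than in the GFP control, and Cox7a2 is highest with MLX shRNA.

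The other named members of complex IV moved less. Cox6c, the most abundant of them, rose by 0.24 under MLX-WT and by 0.39 under MLX shRNA, where it went from 461, 431 and 465 FPKM to 573, 622 and 587. Cox4i1, a regulatory subunit with a form used under low oxygen, stood at 507, 511 and 506 FPKM in the GFP control and 404, 395 and 385 with MLX-DN, a fall of 0.36 (adjusted p = 4.62e-09), and rose by 0.19 with MLX shRNA against NT shRNA. Both depended on the control, since MLX-DN against NT shRNA gave -0.06 (adjusted p = 0.0750) and MLX shRNA against the GFP control gave -0.11 (adjusted p = 0.00123). Its low-oxygen form Cox4i2 was below the filter. Cox6b1 rose by 0.32 with MLX shRNA, from 353, 350 and 342 FPKM to 437, 439 and 427, but against the GFP control it did not pass the test (0.04, adjusted p = 0.171). Cox7a2l, which joins complexes III and IV in supercomplexes, was below the GFP control by 0.22 (MLX-WT) and 0.25 (MLX-DN). In the control it stood at 87.6, 94.8 and 93.2 FPKM, and with NT shRNA it was below both groups, at 70.7, 65.6 and 68.4. The 5 rows below the filter were Cox4i2, Cox6b2, Cox7b2, Cox8c and Ndufa4l2, none above 0.342 FPKM in any library, and Cox8c was listed at 0 in all 15.

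In complex V, subunits of the membrane part rose with MLX shRNA while Atp5j2 fell. Atp5k and Atp5l, the small subunits e and g that help the enzyme form dimers, rose by 0.57 ± 0.037 and 0.53 ± 0.043 (SE, adjusted p = 1.9e-09 and 2.35e-08). Atp5k went from 248.5, 231 and 249.1 FPKM to 353, 384 and 345, and Atp5l from 179, 160.0 and 183 to 246, 267 and 246. Both were also higher than in the GFP control, at 271, 268 and 271 FPKM for Atp5k and 179, 177 and 176 for Atp5l. Atp5j2, the subunit f of the same region, went from 279, 280.4 and 282 FPKM to 203, 211 and 196, a fall of 0.46 ± 0.028 (adjusted p = 9.46e-10), against 0.44 below the GFP control. It was higher with MLX-DN by 0.17 (adjusted p = 3.85e-05). Atp5o, the stalk protein that confers oligomycin sensitivity, fell by 0.14 with MLX shRNA.

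The head and central stalk of complex V carry out catalysis. Atp5d, the delta subunit of the central stalk, stood at 266, 275 and 261 FPKM in the GFP control, 238, 228 and 227 with MLX-WT, 165, 167 and 148 under MLX-DN, 175, 186 and 189 with NT shRNA and 194, 215 and 200.4 with MLX shRNA. It fell by 0.73 ± 0.046 with MLX-DN (SE, adjusted p = 6.49e-10), and was lower than NT shRNA as well, by 0.20 (adjusted p = 0.00156). NT shRNA itself was below the GFP control by 0.54, so against NT shRNA the fall of 0.21 with MLX-WT became a rise of 0.33. With MLX shRNA, Atp5d was called higher than with NT shRNA and lower than in the GFP control. Atp5b, the catalytic beta subunit and the most abundant member, stood at 1253, 1274 and 1237 FPKM in the GFP control and 1277, 1296 and 1351 with MLX shRNA, against 1226, 1237 and 1170.0 with NT shRNA. Its differences were at most 0.14 in size in the 5 comparisons and changed sign with quantile normalization in 4 of them.

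Subunit c, which forms the rotating ring, is encoded by 3 genes whose mature proteins are alike. Atp5g2 stood at 355, 348 and 352 FPKM in the GFP control, 367, 353 and 366 with MLX-WT, 237, 242 and 235 under MLX-DN, 252, 247 and 241 with NT shRNA, and 271, 332 and 295 with MLX shRNA. MLX-DN and NT shRNA were both low: Atp5g2 fell by 0.56 ± 0.049 with MLX-DN (SE, adjusted p = 3.4e-08), but MLX-DN against NT shRNA did not pass the test (-0.05, adjusted p = 0.353). Atp5g1 rose by 0.23 under MLX-WT and by 0.35 under MLX shRNA, where it went from 175, 177 and 173 FPKM to 209, 233 and 228. Atp5g3, the most abundant of the 3 at a mean of 611 FPKM, was lower with MLX-WT by 0.19 and with MLX-DN by 0.13 than in the GFP control, yet higher than with NT shRNA by 0.07 and 0.13, and with quantile normalization it was higher with MLX-DN than in the GFP control by 0.08. As a share of the sum with Atp5g3, Atp5g2 was 34.2% ± 0.487 (SD, n = 3) in the GFP control, 27.8% ± 0.351 with MLX-DN and 30.4% ± 0.357 with NT shRNA. The rows Atp5s and Atp5sl, which share the symbol but encode no structural subunit, had means of 2.85 and 3.31 FPKM. Atp5s rose by 0.28 with MLX-DN, which turned to -0.01 with length and GC trends removed, and by 0.18 with MLX shRNA.

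MLX-DN and MLX shRNA, both meant to lower MLX activity, were compared through the difference of their effects, each against its own control. The effects were unequal for 69 of the 81 members: 54 were higher with MLX shRNA and 15 lower (42.8% and 32% of all genes tested). A total of 24 members fell with MLX-DN and rose with MLX shRNA, or 29.6% against 11.1% of all genes tested, and 6 did the reverse, or 7.41% against 10.5%. Among the 24 were Atp5d, Atp5g2, Uqcr11 and Cox6a1, and the 6 were Ndufs1, Uqcrfs1, Cox8b, Atp5j, Atp5j2 and Atp5o. The difference of the effects, shRNA minus DN, was 0.88 ± 0.066 for Atp5d, 0.83 ± 0.070 for Atp5g2 and 0.68 ± 0.073 for Uqcr11, and it was -0.63 ± 0.040 for Atp5j2, -0.52 ± 0.034 for Ndufs1 and -0.50 ± 0.046 for Atp5j (SE; adjusted p from 5.69e-07 to 1.16e-09). The control libraries are part of this difference, since NT shRNA was below the GFP control for 55 members.

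**Figure D5:**
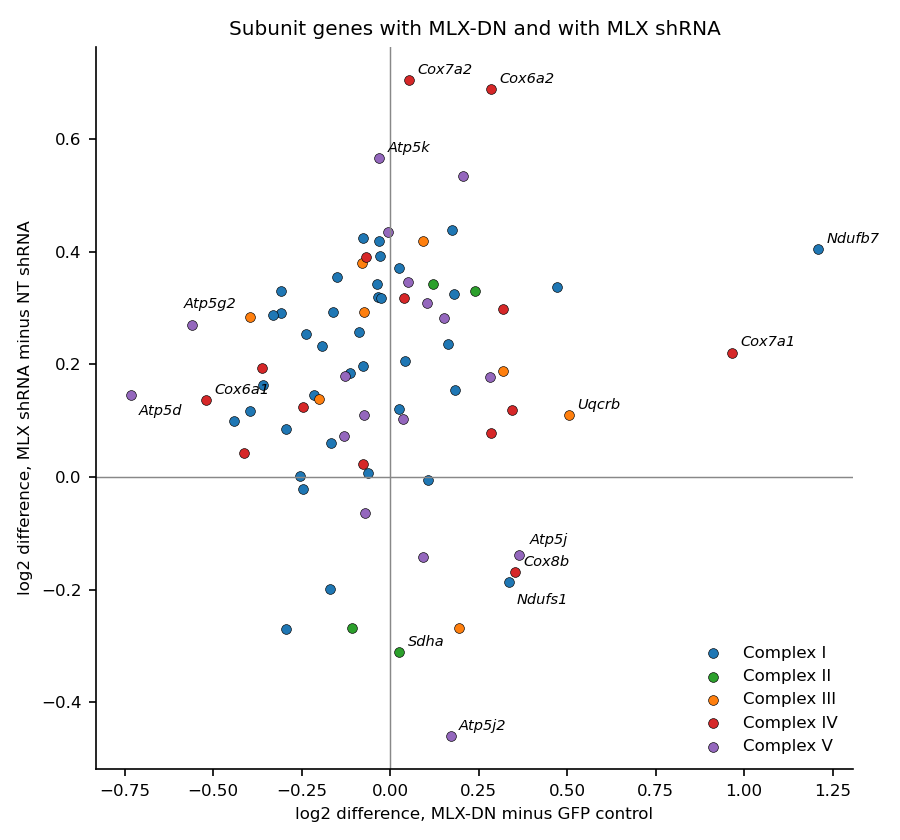
Log2 difference with MLX-DN against the GFP control (x axis) and with MLX shRNA against NT shRNA (y axis) for the 81 members, coloured by complex. More members lie at the upper left (24 called lower with MLX-DN and higher with MLX shRNA) than at the lower right (6 called the other way).

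Genes that build or supply the complexes were followed beside the subunits. Of 47 assembly factors tested, 25 rose and 7 fell with MLX shRNA, 10 rose and 19 fell with MLX-WT, and 15 rose and 16 fell with MLX-DN, with medians of 0.11, -0.07 and 0.04. The shares of all genes tested that were called higher and lower were 30.8% and 39.3% with MLX shRNA, 27.6% and 42.7% with MLX-WT, and 32.6% and 48.8% with MLX-DN. Cox17, a copper chaperone for complex IV, rose by 0.40 with MLX-WT, from 123 to 163 FPKM, and Sco2, another copper chaperone, fell by 0.58 with MLX-DN, from 33.8 to 21.9. Cox20, which escorts a mitochondrially encoded complex IV subunit, rose by 0.72 with MLX-DN, from 51.9 to 86.2 FPKM. Cox19, a further copper factor, rose by 0.43 with MLX shRNA, from 33.7 to 46.0 (adjusted p at most 2.62e-07 for the 4). Of 12 electron carriers and coupling partners, 8 rose and 1 fell with MLX shRNA, 2 rose and 7 fell with MLX-WT, and 4 rose and 6 fell with MLX-DN, to be read against the same shares. With the other control these counts changed. MLX-WT against NT shRNA had 9 carriers higher and 2 lower, and 16 assembly factors higher and 9 lower (25.7% and 44.3% of genes tested). MLX-DN against NT shRNA had 4 and 4 carriers, and 16 and 7 assembly factors (21% and 48.7%). MLX shRNA against the GFP control had 5 and 4 carriers, and 20 and 13 assembly factors (37.3% and 42.8%). Etfa and Etfb, the chains of the flavoprotein that feeds electrons from fatty acid oxidation, were led by Etfa, up by 0.49 with MLX shRNA from 85.2 to 120.5 FPKM, while Etfb fell by 0.60 with MLX-DN from 76.8 to 50.1. The 13 mitochondrially encoded subunits were not analysed here.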

How the data were processed

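Poly(A) RNA was sequenced from 15 libraries of C2C12 cells with a stranded TruSeq mRNA kit, per the labels' protocols. The authors deposited a table of log2 values, read here as log2(FPKM + 2) because its lowest value is 1, and FPKM was recovered from it. The submitters' processing notes name CASAVA, TopHat2, STAR and mm9 with no role. Which aligner gave the deposited FPKM values, the annotation and the use of strand are not given in the sources used here. Read depth was inferred from the spacing of low FPKM values, of which 60.4% to 63.6% per library lay within 0.05 of a whole read, so no count test was run.

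Genes reaching an FPKM of 1 in 3 or more of the 15 libraries were tested on the deposited log2 scale, which understates changes of low genes, with limma 3.58.1 in R 4.3.3: 1 fit of 5 group means over all 15 libraries, with a variance trend, 10 residual degrees of freedom and Benjamini-Hochberg adjustment over all 11945 genes. Calls have adjusted p below 0.05. All p-values in the report are two-sided and come from this fit. Errors of levels are SD over 3 libraries and errors of log2 differences are SE. The code was tested on simulated data. Group sums are of FPKM.

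The members and lists were chosen with earlier results of these data known. Genes were picked for naming by a rule. In each complex and each comparison with the own control, it took the 2 called members with the largest rise and the 2 with the largest fall. It also took members with a counterpart gene, the most and least abundant member of each complex, Atp5s and Atp5sl. From each companion list it took the 2 called genes of lowest p in each of these comparisons. Not all picks, nor all their values, are given in the text. Among those left out are Atp5e, Cox15, Cox18, Etfdh, Gpd2 and Slc25a3. A few other genes were named after their values were seen. Alternatives were other offsets, filters, scalings, variance model, libraries in the fit, control, size of change, a block for the replicate number, and each library left out in turn. Equal sums of FPKM, and removal of length and GC trends, were added after seeing the data. Promoters came from RefSeq (GRCm38.p6), and pseudogene copies were searched with BLAST 2.17.0. The same-numbered libraries' deviations from their group means correlated between -0.093 and 0.182, so numbers were not taken as pairs. The values of 1 member are not reported here, and it enters only the counts, medians and sums.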

Additional observations from a re-analysis of the deposited data

Results flagged for a closer look

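Among the members picked for naming, 18 were called in opposite directions with MLX shRNA (against NT shRNA) and MLX-DN (against the GFP control). For each of the 18, the test of the difference between the effects also passed. That pass was close to fixed in advance, since members called in opposite directions were chosen, and it adds no support. The difference, MLX shRNA effect minus MLX-DN effect on the log2 scale, was above 0 for 12 of them. In complex V it was 0.88 for Atp5d, 0.83 for Atp5g2, 0.20 for Atp5g3 and 0.19 for Atp5b. In complex IV it was 0.66 for Cox6a1, 0.55 for Cox4i1 and 0.37 for Cox7a2l. In complex III it was 0.68 for Uqcr11, 0.46 for Uqcrc1 and 0.34 for Uqcr10, and in complex I 0.51 for Ndufa11 and 0.35 for Ndufa4.

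It was below 0 for 6: Atp5j2 at -0.63, Atp5j at -0.50, Atp5o at -0.23, Cox8b at -0.52, Ndufs1 at -0.52 and Uqcrfs1 at -0.46. Each effect has its own control group, and the controls differ between themselves for most members, so the part of the controls in these differences was not tested.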

How the results depend on the processing

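Leaving out 1 library gave 32 to 34 members higher and 18 to 20 lower with MLX-WT, 26 to 28 and 31 to 33 with MLX-DN, 54 to 61 and 9 to 10 with MLX shRNA, 17 to 19 and 36 to 39 for MLX-DN against MLX-WT, 8 to 12 and 52 to 54 for NT shRNA against the GFP control, and 67 to 69 unequal effects. With the other control, MLX-WT had 63 higher and 3 lower, MLX-DN 51 and 7, and MLX shRNA 32 and 29. Requiring a difference of at least 25% left 9 and 0 (MLX-WT), 7 and 10 (MLX-DN), 21 and 1 (MLX shRNA), 2 and 13 (MLX-DN against MLX-WT), and 1 and 15 (NT shRNA against the GFP control). Median centring left 8 lower for MLX-WT and 21 for MLX-DN. With length and GC trends removed, 23 were higher with MLX-WT, and 30 were higher and 25 lower for MLX-DN against MLX-WT. The cause was not tested.

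For each comparison only the members picked for naming in it are listed. Others changed sign too, such as Atp5d and Ndufa11 with MLX shRNA, called higher against NT shRNA and lower against the GFP control. These log2 differences, called in at least 1 of the settings compared, changed sign. With the other control: MLX-WT, Atp5d 0.33, Atp5g3 0.069, Cox4i1 0.30, Cox7a2l 0.20, Ndufa4 0.16, Ndufb7 -0.24, Ndufs3 0.089 and Uqcrc1 0.059, and MLX-DN, Atp5g3 0.13, Cox6c 0.13, Cox7a2l 0.17, Ndufa4 0.14 and Sdhc 0.065, and MLX shRNA, Atp5g2 -0.24, Atp5g3 -0.19, Cox4i1 -0.11, Cox7a2l -0.29 and Cox8b 0.017. With median centring: Cox4i1 0.061 and Ndufa4 0.004 (MLX-WT), Atp5b 0.015 and Ndufa4 0.003 (MLX-DN). With quantile normalization: Atp5b 0.19, Atp5g3 0.078, Atp5sl 0.077 and Ndufa4 0.014 (MLX-DN), Atp5b -0.015 (MLX shRNA), Atp5b 0.066, Cox6b1 0.11 and Uqcrh 0.12 (MLX-DN against MLX-WT) and Atp5b 0.28 (NT shRNA against the GFP control). With length and GC trends removed: Cox6b1 -0.019 (MLX-WT), Atp5s -0.008 (MLX-DN), Atp5g3 -0.039 (MLX shRNA), Cox6a1 0.002, Cox6a2 0.022, Cox6b1 0.074, Cox7a2 0.12 and Uqcrh 0.071 (MLX-DN against MLX-WT) and Cox8a 0.075 (NT shRNA against the GFP control). With another offset, filter or variance model, with equal sums or with 1 library left out, the sign changes of named members were limited to differences called in neither setting.

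With the replicate number as a block, 34 members were higher and 21 lower with MLX-WT, 26 and 33 under MLX-DN, 60 and 10 with MLX shRNA, 19 and 38 for MLX-DN against MLX-WT, and 12 and 55 for NT shRNA against the GFP control, with 69 unequal effects. Of 30 same-numbered pairs of libraries 4 correlated above 0.1, and 10 of 15 libraries correlated best with their own number. Depth was estimated and not given, so the counting error of single values is unknown.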

Other observations

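Transcription factors and mitochondrial DNA factors known to govern oxidative phosphorylation genes were measured as a further list, of which 23 of 26 passed the filter. With MLX-WT 3 rose and 12 fell, with MLX-DN 6 rose and 10 fell, and with MLX shRNA 7 rose and 8 fell, with medians of -0.10, -0.04 and -0.05 on the log2 scale. Of all genes tested, 27.6%, 32.6% and 30.8% were called higher and 42.7%, 48.8% and 39.3% lower in these comparisons. Polg, the mitochondrial DNA polymerase, was at 15.9 FPKM in the GFP control, 13.7 with MLX-WT and 11.7 with MLX-DN, falls of 0.19 and 0.38. Nrip1, a corepressor of oxidative genes, fell by 0.30 with MLX-WT and by 0.28 with MLX shRNA. Myc was at 21.6 FPKM in the GFP control and 15.9 with MLX-DN, a fall of 0.40, and Sp1 fell by 0.22 with MLX shRNA (limma, adjusted p at most 6.04e-05 for these 4 genes). Ppargc1a, a coactivator of mitochondrial biogenesis, was below the filter, with group means from 0.136 to 0.440 FPKM.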
